A study of Mus musculus with 16 samples.

Results

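Potassium channel subunit genes were described here across the mouse retina with and without Gtf2ird1, at 2 ages. The set was taken as every gene whose symbol starts with Kcn and a further letter, which gave 88 of the 20259 genes measured. Kcne2 and 1 further gene of the class were not described here. Of the 88 genes, 84 encode channel subunits of 15 families, counting the modifier subunits of Kcnf, Kcng, Kcns and Kcnv as 1 family. The remaining 4 are Kcnrg, which encodes a regulator of potassium channels rather than a subunit, and the RNA genes Kcnq1ot1, Kcnd3os and Kcnmb4os1. Some genes had several measurements on the array, and each of these was represented by its brightest one.

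The study compared retinas of mice null for Gtf2ird1 (labelled BEN-NULL), whose product is a TFII-I-type transcription factor, with wild-type (WT) retinas of the same age. Each of 16 Affymetrix Mouse Exon 1.0 arrays carried RNA of a single retina, with 4 biological replicates each of WT and null at 2 weeks and of WT and null at 4 months. The older age is 4 months in the titles and 2 months in the growth protocol, and the groups are called by their titles here. The labels name neither strain nor sex nor the design of the null allele.

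Potassium channels let potassium leave the cell down its gradient and so set the resting potential and shape how a neuron or photoreceptor returns to rest. Voltage-gated Kv subunits assemble as tetramers, often with modifier subunits that form no channel alone and with auxiliary beta, KChIP or KCNE proteins. Inward rectifiers (Kir) and the leak channels of the K2P family hold the membrane near rest, and calcium-activated BK and SK channels couple calcium entry to potassium efflux. In the retina, photoreceptors carry a Kv2 channel with the modifier Kv8.2 (Kcnv2), whose loss in people causes cone dystrophy with supernormal rod response, and the retinal pigment epithelium carries Kir7.1 (Kcnj13).

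The arrays had medians between 5.31 and 5.55 on the log2 scale, and precision is limited by how many arrays there were. Of 4 measurements for Gtf2ird1, 3 were 13.5-fold to 25.9-fold lower in null than in WT at the 2 ages. Rod markers had a mean log2 signal of 12.4 in both groups of 2 weeks and 12.6 in both groups of 4 months. Xist, the RNA of the inactive X chromosome, was at 12.7 to 13.3 in 3 WT arrays (replicates 1 and 4 of 2 weeks and replicate 4 of 4 months) and at 4.56 to 4.79 in the other 13, so sex was not balanced between the genotypes. WT replicate 1 of 2 weeks stood apart, with the lowest limma array weight of the 16, at 0.198 against 0.533 to 1.98 for the others. The mean of 10 lens markers was 10.8 in null and 8.94 in WT at 2 weeks, and that of 10 pigment epithelium markers was 7.57 in null and 6.76 in WT. In these bulk samples, fewer cells of a type and less RNA per cell cannot be told apart. A log2 signal also depends on the probes of each gene, so differences are read between arrays. Signals of different genes are set side by side only to mark low signal and to choose which genes are named. Of the 88 genes, 45 had a mean signal under that of the median gene, 6.38, and 20 were under the lower quartile of all genes, 5.11.

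The first comparison asked how the channel genes differ between the developing retina of 2 weeks and the mature retina of 4 months. In WT, 6 of the 88 genes fell and 1 rose. The gene with the largest fall was Kcnip2, at 3.11-fold, followed by the inward rectifier genes Kcnj8, Kcnj2 and Kcnj5, the auxiliary subunit gene Kcne1l and the Kv1 gene Kcna1. The gene that rose was Kcnj14. In null, 5 genes fell and none rose: Kcnip2, Kcnj8, Kcne1l and Kcnj2 again, and the KCNQ gene Kcnq5. Calls are at a limma adjusted p under 0.05, with Benjamini-Hochberg adjustment over all 20259 genes and a fit in which the 4 groups share 1 estimate of the spread.

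Of all genes 9.19% were called with age in WT and 9.61% in null, and at an unadjusted p under 0.05 the shares were 23.1% and 22.7%. Of all genes in WT, 4.81% fell and 4.38% rose, against 6.82% and 1.14% of the channel set. In null, 5.90% of all genes fell and 3.71% rose, against 5.68% and none of the channel set, where at an unadjusted p under 0.05 limma counted 21 of the 88 in either direction, and 19 in WT. Without WT replicate 1 of 2 weeks, 10 genes were called in WT and 7 in null. The median log2 difference of the set was -0.05 in WT and -0.06 in null, beside -0.04 and -0.02 for all genes. The arrays of the 2 ages did not overlap for 12 of the 88 genes in WT (11 lower and 1 higher at 4 months), or 13.6% beside 12.7% of all genes (6.91% lower and 5.83% higher). In null they did not overlap for 11 (9 lower and 2 higher), or 12.5% beside 17.5% (9.82% lower and 7.69% higher).

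**Figure D1:**
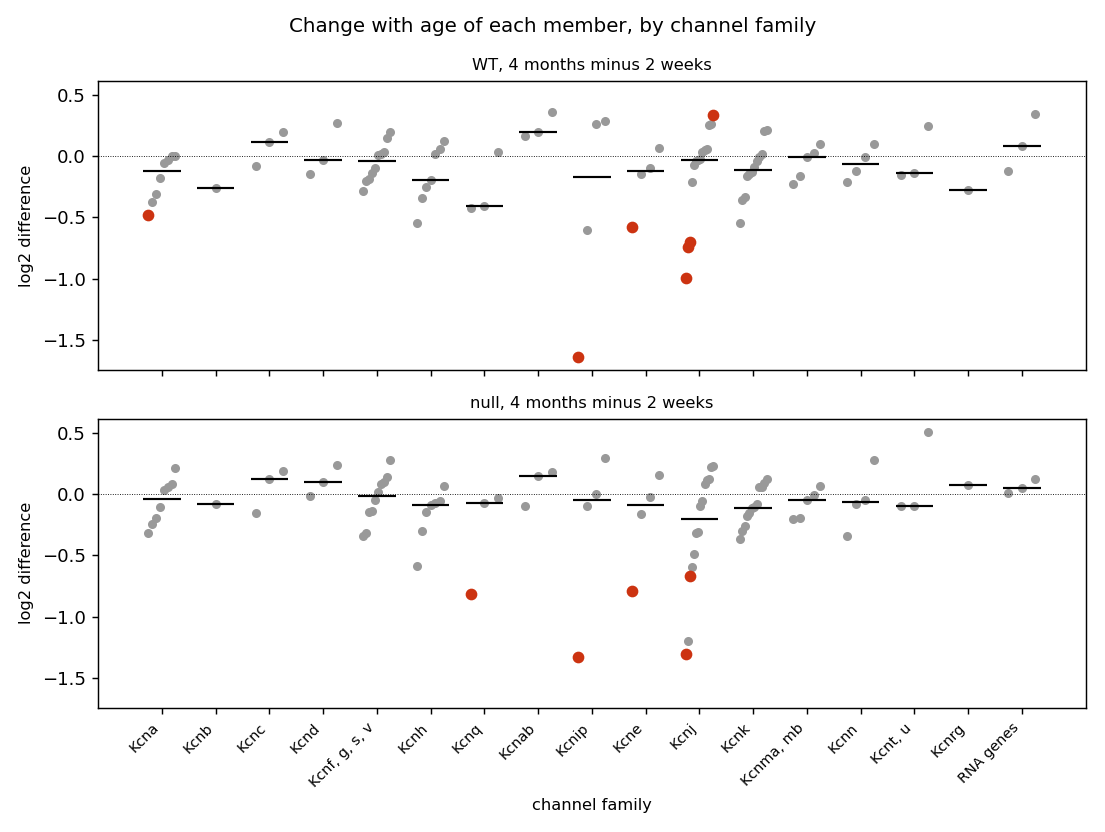
Log2 difference between 4 months and 2 weeks (vertical axis) of each of the 88 genes by channel family (horizontal axis), in WT above and in null below. Points are genes, red where limma called them, and black lines are family medians. Most families lie around 0, and the called genes lie in Kcna, Kcnip, Kcne and Kcnj in WT and in Kcnq, Kcnip, Kcne and Kcnj in null.

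Of the pore-forming Kv subunits, Kcna1 encodes Kv1.1, a low-threshold channel of axons and synaptic terminals. Its log2 signal was 10.49, 10.17, 10.40 and 10.21 in WT at 2 weeks and 9.79, 9.63, 9.79 and 10.13 in WT at 4 months, so the highest older array lay just under the lowest younger one. It fell by 0.48 on the log2 scale in WT (SE 0.116, 1.40-fold, adjusted p = 0.0159, limma). In null the values ran from 9.80 to 10.16 at 2 weeks and from 9.58 to 9.84 at 4 months, with a difference of -0.32 (adjusted p = 0.105, limma). The other measurements of Kcna1 had WT differences of -0.22 and -0.18 that did not pass, and the call was lost without WT replicate 3 of 2 weeks (-0.45) or without WT replicate 2 of 4 months (-0.41). The other 7 Kcna genes had no call at either genotype, with Kcna2 at -0.18 and -0.19 and Kcna5 at -0.06 and -0.11 in WT and null.

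None of the other Kv families held a called gene in these comparisons, apart from Kcnq5. Kcnb2, whose Kv2.2 protein is a delayed rectifier, had log2 differences of -0.26 in WT and -0.08 in null. The Kv3 genes Kcnc1 and Kcnc2, whose channels allow fast firing, were at 0.11 and 0.19 in WT and at 0.18 and 0.12 in null. Kcnd3 encodes Kv4.3, a fast inactivating channel to which KChIP proteins bind. Its signal was 6.77, 6.61, 6.69 and 6.71 in WT at 2 weeks and 6.99, 6.74, 7.14 and 7.02 at 4 months, which overlap. In null it was 6.77, 6.93, 6.84 and 6.72 at 2 weeks and 6.93, 7.07, 6.97 and 7.23 at 4 months, where all older arrays lay at or above the younger ones. Neither difference passed, at 0.27 in WT (SE 0.0932, adjusted p = 0.0814) and 0.24 in null (adjusted p = 0.133, limma). Kcnv2 read 13.17 ± 0.184 (SD, n = 4) in WT at 2 weeks and 13.18 ± 0.178 at 4 months, a difference of 0.01 with a 95% interval of -0.20 to 0.22.

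Among the EAG-type genes, Kcnh5 had log2 differences of -0.34 in WT (adjusted p = 0.0748, limma) and -0.30 in null (adjusted p = 0.118). Its WT arrays did not overlap, at 10.23, 10.29, 10.43 and 10.51 at 2 weeks and 10.01, 9.86, 10.10 and 10.11 at 4 months. Kcnh1 was at -0.55 and -0.58, with adjusted p = 0.354 in WT and 0.328 in null in limma. Kcnh2, which encodes the ERG channel, was at 0.12 and -0.09.

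KCNQ channels pass the M-type current, which opens slowly and damps repetitive firing. Kcnq5 read 6.73, 6.85, 6.79 and 5.94 in null at 2 weeks and 5.65, 6.07, 5.52 and 5.82 at 4 months. Only null replicate 4 of 2 weeks lay within the older range. The gene fell by 0.81 on the log2 scale in null (SE 0.207, 1.76-fold, adjusted p = 0.0195, limma). In WT it read 6.25, 6.33, 6.61 and 5.73 at 2 weeks and 5.76, 5.82, 5.54 and 6.09 at 4 months, with a difference of -0.42 (adjusted p = 0.234). The difference between the genotypes in this change was -0.39, with a 95% interval of -1.01 to 0.23 (interaction, adjusted p = 0.926, limma). The null call rested on few arrays: it was lost on leaving out any one of null replicates 1, 2 or 3 of 2 weeks or 1 or 3 of 4 months, with differences from -0.72 to -0.78. Kcnq5 had 4 measurements, and none of those not used passed in any comparison (limma, adjusted over all rows). Kcnq3 was at -0.40 in WT and -0.03 in null, and neither passed.

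KChIP proteins bind Kv4 subunits, take them to the surface and slow their inactivation. Kcnip2 encodes KChIP2. Its log2 signal was 7.69, 7.72, 7.94 and 7.90 in WT at 2 weeks and 6.02, 5.99, 6.44 and 6.25 at 4 months. In null it was 7.81, 7.11, 7.81 and 7.80 at 2 weeks and 6.04, 6.36, 6.41 and 6.41 at 4 months. Every older array lay below every younger one in both genotypes. Kcnip2 fell by 1.64 on the log2 scale in WT (SE 0.151, 3.11-fold, adjusted p = 1.37e-05, limma). In null it fell by 1.33 (SE 0.151, 2.51-fold, adjusted p = 6.01e-05). The change did not differ detectably between the genotypes, with an interaction of 0.31 (95% interval -0.14 to 0.76, adjusted p = 0.918). Of the other KChIP genes, Kcnip1 was at 0.28 and 0.30, Kcnip3 at 0.27 and 0.00 and Kcnip4 at -0.60 and -0.10 in WT and null, and none passed. Kv4 genes, the partners of KChIP, did not pass in either genotype.

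KCNE proteins are single-pass subunits that change the gating of Kv channels. Kcne1l, the X-linked gene also known as Kcne5, read 7.26, 7.16, 7.32 and 7.12 in WT at 2 weeks and 6.35, 6.75, 6.68 and 6.74 at 4 months. In null it read 7.56, 7.28, 7.69 and 7.46 at 2 weeks and 6.54, 6.86, 6.56 and 6.87 at 4 months. The ages were apart in both genotypes. It fell by 0.58 on the log2 scale in WT (SE 0.115, adjusted p = 0.00507) and by 0.79 in null (1.73-fold, adjusted p = 0.000504, limma). Kcne1, Kcne3 and Kcne4 had log2 differences between -0.16 and 0.15 and did not pass. The Kv beta genes Kcnab1, Kcnab2 and Kcnab3 were at 0.36, 0.17 and 0.20 in WT and at 0.18, -0.10 and 0.15 in null, without a call.

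**Figure D2:**
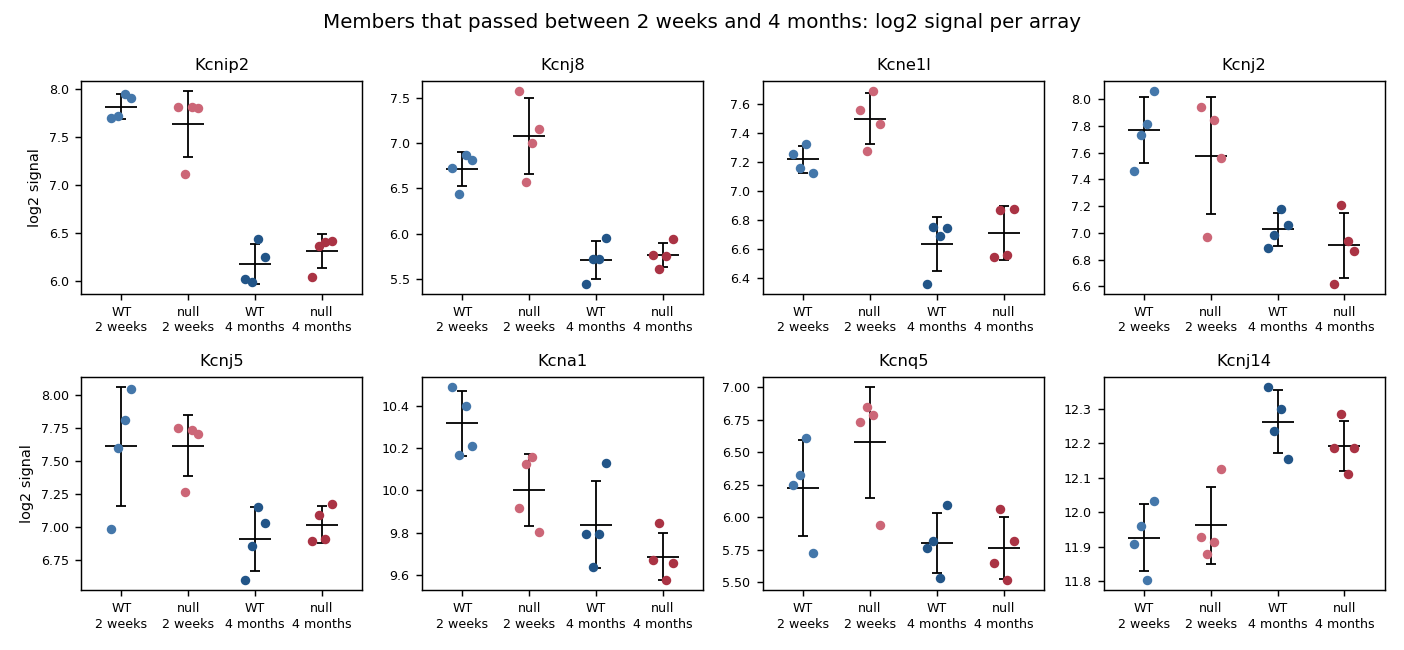
Log2 signal (vertical axis) of the 8 genes called between the ages in WT or null, by group (horizontal axis). Points are arrays, horizontal bars the group mean and error bars 1 SD (n = 4). Kcnip2, Kcnj8 and Kcne1l show no overlap between the ages in either genotype, while Kcnj14 lies higher at 4 months.

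The Kcnj family was the one with the most called genes, 4 of 14 in WT and 2 of 14 in null, and was also the largest family. In WT 21.4% of its genes fell and 7.14% rose, beside 4.81% and 4.38% of all genes. In null 14.3% fell, beside 5.90% of all genes and 33.3% of the 3 Kcnq genes. In each genotype 25% of the 4 Kcne genes and of the 4 Kcnip genes fell. Kcnj8 encodes Kir6.1, the pore of the ATP-sensitive potassium channel of vascular smooth muscle and pericytes, where it pairs with the sulfonylurea receptor SUR2 (Abcc9). Its log2 signal was 6.72, 6.44, 6.87 and 6.81 in WT at 2 weeks and 5.44, 5.73, 5.72 and 5.96 at 4 months. In null it was 7.58, 6.57, 7.0 and 7.16 at 2 weeks and 5.76, 5.61, 5.75 and 5.94 at 4 months. The older arrays were all below the younger ones. Kcnj8 fell by 1.00 on the log2 scale in WT (SE 0.169, adjusted p = 0.0018, limma). In null it fell by 1.31 (SE 0.169, 2.48-fold, adjusted p = 0.000188). Its interaction was -0.31 (95% interval -0.82 to 0.19, adjusted p = 0.929).

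Vascular markers moved with Kcnj8. Abcc9 fell by 1.11 in WT (2.16-fold, adjusted p = 0.000302) and by 1.32 in null (2.5-fold, adjusted p = 4.89e-05, limma), from means of 6.996 and 7.03 at 2 weeks to 5.88 and 5.70 at 4 months. The mean log2 signal of 8 endothelium and pericyte markers was 7.30 to 7.49 in WT at 2 weeks and 7.17 to 7.25 at 4 months. In null it was 7.53 to 7.88 at 2 weeks and 7.23 to 7.35 at 4 months. Of the 8 markers, 3 fell and 1 rose in WT, and 4 fell and 1 rose in null. The pericyte gene Rgs5 fell by 0.95 in WT and fell by 1.24 in null, the endothelial cadherin gene Cdh5 fell by 0.75 in WT and fell by 1.48 in null, while the receptor gene Flt1 rose by 0.90 in WT and Kdr by 0.73 in null. Array signals have no true 0, so no marker was read as absent. With this marker mean as a covariate, an alternative added after the data were seen, 1 of the 7 WT calls, Kcnip2, and none of the 5 null calls remained, and the calls over all genes dropped from 1861 to 315 in WT and from 1947 to 19 in null. Under it the differences of Kcnj8 were -0.90 in WT and -1.13 in null. The ages did not overlap in this mean in either genotype, so the fit cannot separate the markers from age.

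Pigment epithelium markers also moved with age in null. Their mean went from 7.57 to 6.23 there, with 6 of 10 called lower, none higher and a median difference of -1.34. In WT it went from 6.76 to 6.27, with 2 called lower and none higher. With this mean as a covariate none of the 5 null calls remained, and the calls over all genes dropped from 1947 to 108. The null differences were then -1.20 for Kcnip2, -1.17 for Kcnj8, -0.95 for Kcne1l, -0.68 for Kcnj2 and -0.9997 for Kcnq5. In null this mean did not overlap between 2 weeks (7.30 to 7.92) and 4 months (5.51 to 6.60). The fit therefore cannot separate these markers from age. Other marker means also fell with age. In null the ganglion cell mean was 9.12 to 9.37 at 2 weeks and 8.74 to 8.97 at 4 months. The horizontal cell mean in null was 7.39 to 7.69 and then 7.13 to 7.34. In WT the microglia mean was 6.06 to 6.28 and then 5.78 to 5.91. These lists overlapped between the ages in the other genotype, and the rod, cone, bipolar, Muller glia, amacrine and lens lists in both. The part of these lists was not tested.

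**Figure D3:**
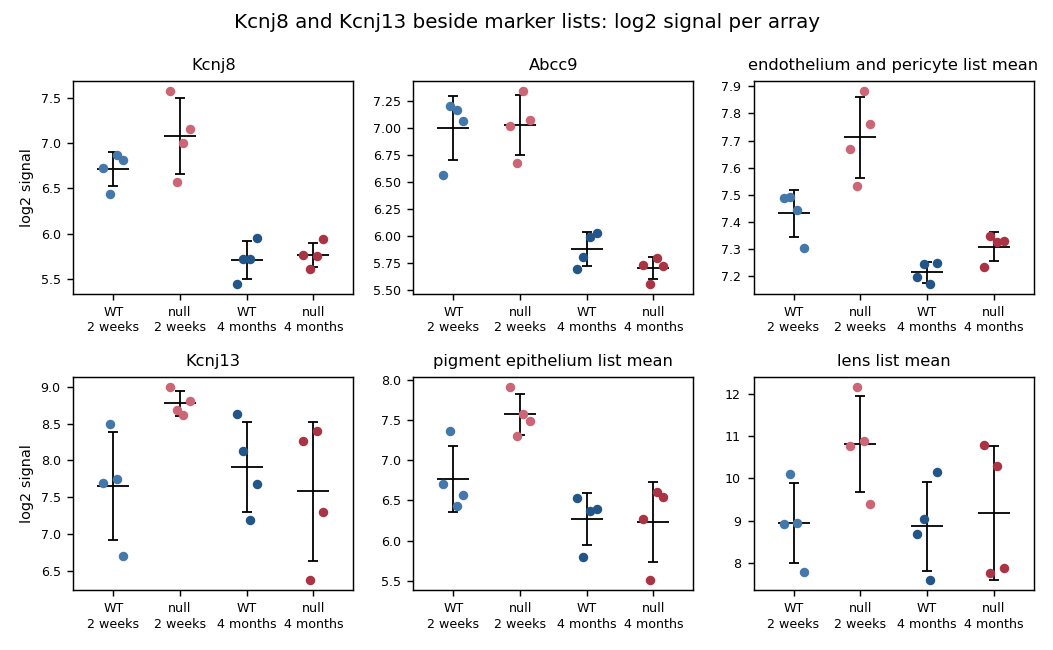
Log2 signal (vertical axis) of Kcnj8, Abcc9 and Kcnj13 beside the mean of the endothelium and pericyte, pigment epithelium and lens marker lists, by group (horizontal axis). Points are arrays, bars the mean and error bars 1 SD (n = 4). Kcnj8, Abcc9 and the vascular list are lower at 4 months, and Kcnj13 and the pigment epithelium list are highest in null at 2 weeks.

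Kcnj2 encodes Kir2.1, a strong inward rectifier. It read 7.46, 7.73, 7.81 and 8.06 in WT at 2 weeks and 6.89, 6.99, 7.18 and 7.06 at 4 months. In null it read 7.94, 6.97, 7.84 and 7.56 at 2 weeks and 6.62, 7.21, 6.94 and 6.86 at 4 months. The WT ages were apart, while null replicate 2 of 2 weeks lay among the older null arrays. Kcnj2 fell by 0.74 on the log2 scale in WT (SE 0.184, 1.67-fold, adjusted p = 0.0182) and by 0.67 in null (adjusted p = 0.0292, limma). Both calls were lost on leaving out single arrays: WT replicates 3 or 4 of 2 weeks or 1 of 4 months (-0.64 to -0.73), and null replicates 1, 3 or 4 at either age (-0.55 to -0.68).

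Kcnj5 encodes Kir3.4, a channel opened by G-protein beta-gamma subunits. It read 6.99, 7.60, 7.81 and 8.05 in WT at 2 weeks and 6.60, 6.86, 7.15 and 7.03 at 4 months, and WT replicate 1 of 2 weeks lay within the older range. It fell by 0.70 on the log2 scale in WT (SE 0.186, 1.63-fold, adjusted p = 0.0264, limma). In null the ages did not overlap, at 7.75, 7.27, 7.74 and 7.71 against 6.89, 7.09, 6.91 and 7.18, but the difference of -0.60 had an adjusted p of 0.0535. The WT call was lost without WT replicate 3 or 4 of 2 weeks (-0.64 and -0.56) or WT replicate 1 or 2 of 4 months (-0.60 and -0.69). The other Kir3 genes did not pass, with Kcnj3 at -0.04 and 0.11, Kcnj6 at -0.03 and -0.31 and Kcnj9 at 0.26 and 0.22 in WT and null.

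Kcnj14, which encodes Kir2.4, was the called gene that rose. It read 11.91, 11.96, 11.80 and 12.03 in WT at 2 weeks and 12.36, 12.24, 12.30 and 12.15 at 4 months, with no overlap. Kcnj14 rose by 0.34 on the log2 scale in WT (SE 0.0807, 1.26-fold, adjusted p = 0.0154, limma). In null the difference was 0.23 (adjusted p = 0.0892). The measurement used lay in the table beside those of other chromosomes, with 0 of 20 named neighbours on its own, whereas for every other of the 88 genes at least 14 of 20 neighbours were. A second Kcnj14 measurement differed by 0.21 in WT (adjusted p = 0.202 over all rows), so the call is uncertain. It was lost without WT replicate 3 of 2 weeks or replicate 1 of 4 months (0.30 each).

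The 12 leak channel genes of Kcnk held no call at either genotype. Their log2 differences ran from -0.55 (Kcnk18) to 0.21 (Kcnk1) in WT and from -0.37 (Kcnk1) to 0.12 (Kcnk4) in null. The 5 BK genes, the 4 SK and IK genes of Kcnn and the 3 genes of Kcnt and Kcnu held none either. Kcnma1, the BK pore, was 11.70 ± 0.145 (SD, n = 4) in WT at 2 weeks and 11.69 ± 0.0883 at 4 months. In null it read 11.82, 11.76, 11.82 and 11.98 at 2 weeks and 11.54, 11.72, 11.63 and 11.68 at 4 months, which do not overlap, and the difference of -0.21 did not pass (adjusted p = 0.154, limma). Kcnt1, the sodium-activated Slack channel, was at 0.51 in null (adjusted p = 0.126), with 7.38, 6.95, 7.38 and 7.46 at 2 weeks and 7.53, 8.13, 7.78 and 7.76 at 4 months.

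The start regions of the genes that fell in both genotypes are shown because the set was chosen by name and not by sequence, so that any letters they share can be read directly. RefSeq promoters of GRCm38.p6, from 250 bases before to 50 after the first listed start, were held for 67 of the 88 genes. Capitals mark matches on either strand to GGATTA, the core bound by the photoreceptor factors CRX and OTX2, to TATAAA and to GGGCGG or CACGTG. The 4 regions lie at chr19:45816014-45816313 (Kcnip2, minus strand), chr6:142571565-142571864 (Kcnj8, minus), chrX:142306149-142306448 (Kcne1l, minus) and chr11:111065914-111066213 (Kcnj2, plus).
Kcnip2: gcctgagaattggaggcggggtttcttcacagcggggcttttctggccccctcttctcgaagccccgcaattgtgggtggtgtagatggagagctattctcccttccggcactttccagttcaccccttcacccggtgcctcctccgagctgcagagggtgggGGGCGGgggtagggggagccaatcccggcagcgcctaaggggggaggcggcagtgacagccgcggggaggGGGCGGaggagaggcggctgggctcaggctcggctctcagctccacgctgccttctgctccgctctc
Kcnj8: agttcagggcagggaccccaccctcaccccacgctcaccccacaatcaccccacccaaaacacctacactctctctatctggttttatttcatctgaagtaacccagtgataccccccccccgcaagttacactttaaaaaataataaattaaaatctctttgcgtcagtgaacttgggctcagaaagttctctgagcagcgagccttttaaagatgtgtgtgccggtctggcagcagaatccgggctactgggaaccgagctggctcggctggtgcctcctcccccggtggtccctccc
Kcne1l: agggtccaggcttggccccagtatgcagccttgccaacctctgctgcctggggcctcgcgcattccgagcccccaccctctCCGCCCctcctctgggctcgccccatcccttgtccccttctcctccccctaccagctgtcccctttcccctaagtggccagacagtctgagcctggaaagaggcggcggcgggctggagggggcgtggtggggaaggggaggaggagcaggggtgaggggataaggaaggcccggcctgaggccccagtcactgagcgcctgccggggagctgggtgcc
Kcnj2: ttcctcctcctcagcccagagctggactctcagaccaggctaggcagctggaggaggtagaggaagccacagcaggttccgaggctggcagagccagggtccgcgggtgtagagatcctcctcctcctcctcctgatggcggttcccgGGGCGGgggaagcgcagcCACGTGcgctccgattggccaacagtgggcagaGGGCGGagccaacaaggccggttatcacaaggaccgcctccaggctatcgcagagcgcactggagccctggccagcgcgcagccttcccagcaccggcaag
Kcnip2, Kcne1l and Kcnj2 held GGGCGG, Kcnj2 also held CACGTG, and Kcnj8 held none of the 4 motifs. GGGCGG was in 33 of the 67 promoters of the set, or 49.3%, beside 35.9% of all 27018 promoters. GGATTA was in 3 (Kcng4, Kcnj9 and Kcnrg), or 4.48% beside 7.16%, TATAAA in 3 (4.48% beside 14.2%) and CACGTG in 5 (7.46% beside 7.24%). Of the genes called between the ages, Kcna1 and Kcnj14 had no promoter to search, and the others held no GGATTA. With GGATTA in 7.16% of all promoters, its absence from so few genes is uninformative.

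The second comparison, which the study was built on, set null against WT retinas. No channel gene passed at either age. At 2 weeks limma called 1.06% of all genes and none of the 88, of which 11 (12.5%) had an unadjusted p under 0.05 beside 12.5% of all genes. At 4 months it called 0.410% of all genes and none of the 88, of which 4 (4.55%) had an unadjusted p under 0.05 beside 5.37%. Averaged over both ages it called 1.40% of all genes and none of the 88, with 9 of the 88 (10.2%) at an unadjusted p under 0.05 beside 11.3%. With a sex covariate the counts were again 0, and without WT replicate 1 of 2 weeks 1 gene, Kcnv2, was called in the average of the ages. The median log2 difference of the set was -0.01 at 2 weeks and 0.00 at 4 months, beside -0.02 and 0.00 for all genes.

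The intervals bound, gene by gene, the difference in array signal that could have been missed. For genes of low signal, such as the 20 under the lower quartile, a narrow interval need not bound the change in RNA. At 2 weeks the 95% interval of the difference lay within 1.5-fold in either direction for 73 of the 88 genes and within 2-fold for 87. At 4 months it did so for 79 and 87. The gene outside 2-fold at both ages was Kcnj13. The genotypes did not overlap at 2 weeks for 6 genes (6.82%, beside 5.82% of all genes), with Kcnab2 and Kcnj13 higher (3.14% of all genes) and Kcna1, Kcnh4, Kcnmb1 and Kcnn2 lower in null (2.69%). At 4 months they did not overlap for 1 gene, Kcnf1, lower in null (1.14% beside 4.73% in either direction and 2.20% lower).

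**Figure D4:**
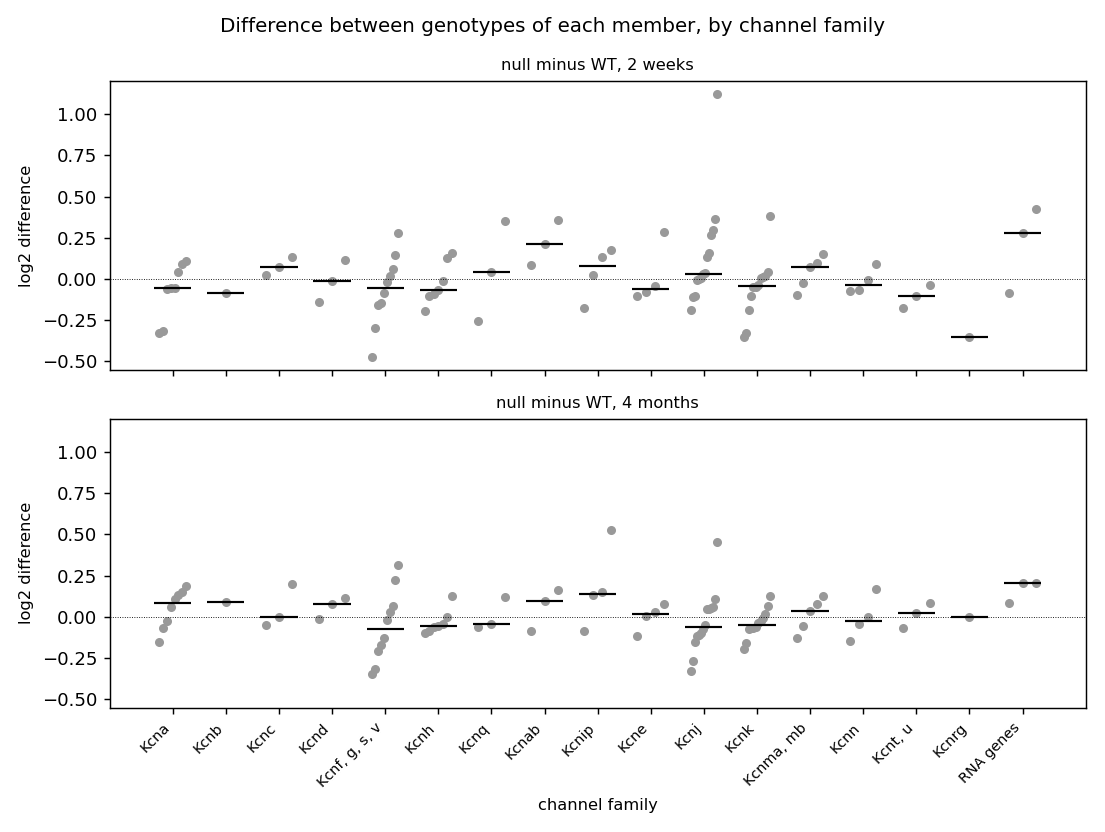
Log2 difference between null and WT (vertical axis) of each of the 88 genes by channel family (horizontal axis), at 2 weeks above and at 4 months below. Points are genes, none of which was called, and black lines are family medians. Kcnj13 at 2 weeks, at 1.12, stands above the rest.

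Kcnv2 encodes Kv8.2, the modifier that joins Kv2 subunits in rod and cone inner segments. It read 12.90, 13.19, 13.27 and 13.31 in WT and 13.01, 12.995, 13.07 and 12.98 in null at 2 weeks. At 4 months it read 12.94, 13.16, 13.26 and 13.35 in WT and 12.96, 12.83, 12.82 and 12.83 in null. WT replicate 1 was the lowest WT array at each age, below every null array at 2 weeks and within the null range at 4 months, and the other 3 WT arrays were above every null array. The log2 difference was -0.16 at 2 weeks (SE 0.0997, adjusted p = 0.545, limma) and -0.32 at 4 months (adjusted p = 0.379). Averaged over both ages it was -0.24 (SE 0.0705, 1.18-fold lower, adjusted p = 0.135). It passed with quantile normalization (-0.27), with array weights (-0.26) and without WT replicate 1 of 2 weeks (-0.28). The mean of 8 cone markers was also lower in null, at 9.38 against 9.70 at 2 weeks and 9.41 against 9.60 at 4 months, with 5 of the 8 lower and 3 higher at each age and a median difference of -0.21 and -0.11. Pde6h, a cone phosphodiesterase subunit gene, had the lowest differences, at -1.54 and -1.13, and Opn1sw, the short-wave cone opsin gene, was at 0.30 and 0.09. Called lower were Pde6h and Arr3 at 2 weeks and Pde6h at 4 months. The rod markers were at 12.4 in both genotypes at 2 weeks and 12.6 in both at 4 months. Their part in the Kcnv2 values was not tested. Kcnb2, a Kv2 partner of Kcnv2, was at -0.09 and 0.09 at the 2 ages.

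Kcnab2 encodes Kv beta 2, a cytoplasmic partner of Kv1 channels. At 2 weeks it read 9.77, 9.70, 9.57 and 9.68 in WT and 9.96, 10.01, 10.06 and 10.13 in null, with every null array above every WT array. The log2 difference was 0.36 (SE 0.1, 1.28-fold, adjusted p = 0.107, limma). A two-sided exact permutation test gave p = 0.0286, the smallest that 4 against 4 arrays can give. Any gene without overlap reaches that value, and Kcnab2 was picked for its low p, so the test adds no support. At 4 months it was 9.84, 9.91, 9.998 and 9.65 in WT and 9.94, 10.13, 9.67 and 10.03 in null, a difference of 0.10 with overlap. Kcna1, a Kv1 partner, went the other way at 2 weeks, at 10.49, 10.17, 10.40 and 10.21 in WT against 9.92, 10.13, 10.16 and 9.80 in null. Its log2 difference was -0.32 (SE 0.116, adjusted p = 0.255, limma), and at 4 months it was -0.15.

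**Figure D5:**
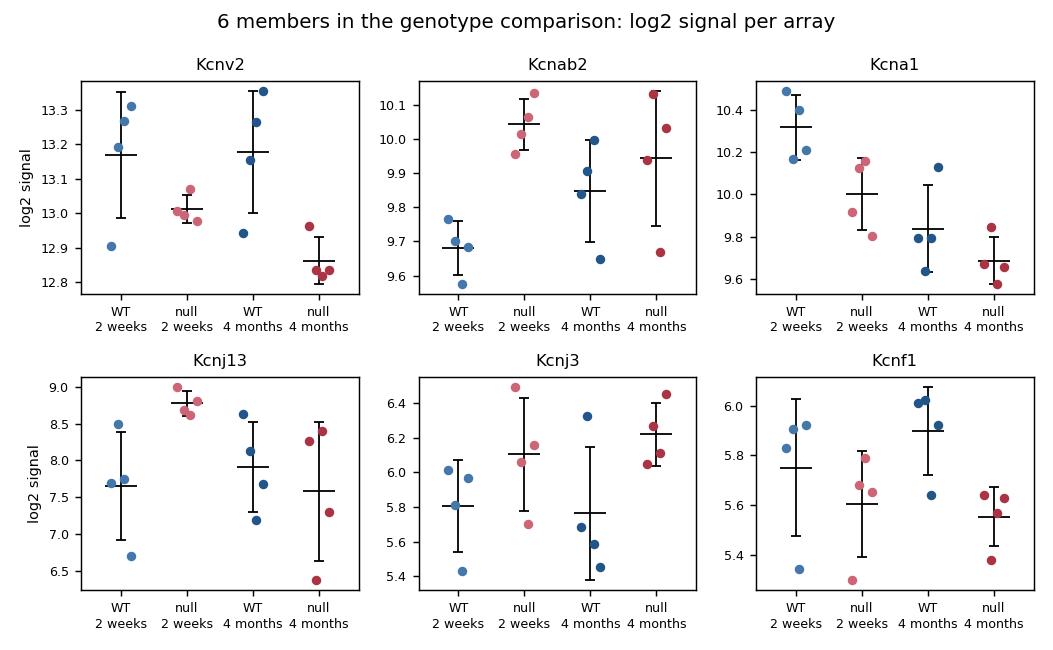
Log2 signal (vertical axis) of 6 genes described in the genotype comparison, by group (horizontal axis). Points are arrays, bars the mean and error bars 1 SD (n = 4). Kcnab2 and Kcnj13 are higher and Kcna1 lower in null at 2 weeks without overlap, and Kcnf1 is lower in null at 4 months, but none passed in limma.

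Kcnj13 encodes Kir7.1 of the apical membrane of the pigment epithelium, the layer that adjoins the photoreceptors. At 2 weeks it read 7.70, 8.49, 7.75 and 6.70 in WT and 9.01, 8.69, 8.62 and 8.81 in null. Every null array was above every WT array, although WT replicate 2 came close. The log2 difference was 1.12 (SE 0.418, 95% interval 0.24 to 2.01, 2.18-fold, adjusted p = 0.27, limma). At 4 months it was 8.63, 8.13, 7.19 and 7.68 in WT and 8.26, 6.37, 8.40 and 7.30 in null, a difference of -0.33 with wide overlap. The interaction of genotype and age was -1.45 (95% interval -2.70 to -0.20, adjusted p = 0.77), and within null the change with age was -1.20 (adjusted p = 0.0863). Limma called 0.00987% of all genes for the interaction and none of the 88. Of the 88, 4 (4.55%) had an unadjusted p under 0.05 beside 5.92% of all genes (Kcnj13, Kcnv1, Kcnk6 and Kcnk1).

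At 2 weeks the mean of the pigment epithelium markers, like Kcnj13, was higher in null. It was 6.70, 7.36, 6.43 and 6.57 in WT and 7.92, 7.30, 7.57 and 7.49 in null. WT replicate 2 was the highest WT array of 2 weeks in Kcnj13, in this mean and in the lens mean, at 10.1. At 4 months WT replicate 2 was the lowest WT array in the pigment epithelium mean, at 5.80, but not in Kcnj13. Of the 10 pigment epithelium markers 9 were higher in null at 2 weeks and 2 were called (Pmel at 0.79 and Tyr at 0.94), with a median difference of 0.86. The lens markers were higher in null for 10 of 10, without a call, and their median difference was 2.18. The part of these tissues in the Kcnj13 values was not tested. The start region of Kcnj13 is shown for its TATAAA, marked in capitals, which 3 of the 67 promoters held. It lies at chr1:87394680-87394979 on the minus strand of GRCm38.p6 and is from RefSeq.
Kcnj13: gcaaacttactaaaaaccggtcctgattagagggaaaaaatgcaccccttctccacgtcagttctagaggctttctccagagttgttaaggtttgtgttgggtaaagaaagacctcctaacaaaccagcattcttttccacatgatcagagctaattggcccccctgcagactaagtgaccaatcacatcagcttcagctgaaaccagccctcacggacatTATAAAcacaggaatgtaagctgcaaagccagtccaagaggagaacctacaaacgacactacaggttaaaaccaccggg

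Of the other inward rectifiers, Kcnj3, which encodes Kir3.1, read 5.69, 6.32, 5.59 and 5.45 in WT and 6.05, 6.27, 6.11 and 6.45 in null at 4 months. WT replicate 2 lay within the null range, and the log2 difference was 0.46 (adjusted p = 0.769, limma). Averaged over the ages it was 0.38 (adjusted p = 0.255). Kcnj8 was at 0.37 at 2 weeks (adjusted p = 0.389), where the mean of the vascular markers was 7.71 in null against 7.43 in WT, and at 0.05 at 4 months. Kcnj2, Kcnj5 and Kcnj14 lay between -0.19 and 0.11 at both ages.

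Among the modifier and KChIP genes, Kcnf1 read 6.01, 6.02, 5.64 and 5.92 in WT and 5.64, 5.38, 5.57 and 5.63 in null at 4 months, with all null arrays at or below the lowest WT array. Its log2 difference was -0.35 (adjusted p = 0.702, limma). Kcnip4 had the largest difference at that age, 0.53 (95% interval 0.06 to 0.99, adjusted p = 0.769), with 8.07, 7.71, 7.002 and 7.24 in WT and 7.95, 8.44, 7.80 and 7.95 in null. Kcnv1 was at -0.30 at 2 weeks (adjusted p = 0.167), near the low end of the signal. Kcnip2, the gene with the largest fall with age, was at -0.18 at 2 weeks and 0.13 at 4 months, where the 95% intervals ran from -0.50 to 0.14 and from -0.19 to 0.45.

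None of the calcium-activated and leak genes was called between the genotypes. The 12 Kcnk genes ran from -0.35 to 0.38 at 2 weeks, with 2 at an unadjusted p under 0.05 and 9 intervals within 1.5-fold, and from -0.19 to 0.13 at 4 months, with all 12 intervals within it. Kcnma1 was at 0.15 at 2 weeks and -0.05 at 4 months. Kcnk1, which encodes the leak channel TWIK-1, was at 0.38 at 2 weeks (adjusted p = 0.387) and -0.19 at 4 months. Of the RNA genes, Kcnq1ot1, the imprinted antisense RNA of Kcnq1, read 9.9998, 10.79, 10.09 and 10.34 in WT and 10.98, 10.51, 10.72 and 10.73 in null at 2 weeks. The log2 difference was 0.43 (adjusted p = 0.21, limma), and it passed only when WT replicate 2 of 2 weeks, the WT array within the null range, was left out (0.59). Kcnq1 itself was at 0.04 at 2 weeks.

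Genes outside the set that work with these channels were taken from a list of 16 partners and HCN channels, of which 14 were measured, and a list of 12 pumps and transporters, of which 8 were. With age, 3 partners fell in WT and none rose, and 3 fell and 1 rose in null. Abcc9 is given above. Abcc8 encodes the sulfonylurea receptor of Kir6.2, and it fell by 0.47 in WT and fell by 0.45 in null. Each call was lost on leaving out any one of replicates 2, 3 or 4 of 2 weeks or of WT replicates 2, 3 or 4 or null replicates 1, 3 or 4 of 4 months (-0.39 to -0.47). Hcn3 encodes a channel of the hyperpolarisation-activated current, and it fell by 0.41 in WT and fell by 0.49 in null. Its WT call was lost without WT replicate 2 or 3 of 2 weeks, WT replicate 2, 3 or 4 of 4 months or null replicate 3 of 4 months (-0.33 to -0.43), and its measurement had 9 of 20 named neighbours on its own chromosome. Over the list the median log2 difference was -0.13 in WT and -0.19 in null. None of the 8 pumps and transporters passed in limma in any comparison, with 1 of them at an unadjusted p under 0.05 with age in WT and none in the other comparisons.

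Between the genotypes 1 of the 14 partners passed, Dpp10 at 4 months, where 0.227% of all genes were called higher in null. Dpp10 encodes an auxiliary subunit of Kv4 channels. It read 6.22, 5.38, 6.26 and 6.06 in WT and 6.78, 7.06, 6.89 and 7.28 in null at 4 months, with every null array above every WT array. Dpp10 was 2.03-fold higher in null, by 1.02 on the log2 scale (SE 0.172, 95% interval 0.66 to 1.39, adjusted p = 0.0104, limma). Fitted on the 8 arrays of that age alone, the adjusted p was 0.0669. At 2 weeks it read 5.77, 5.90, 6.02 and 6.29 in WT and 5.89, 5.95, 5.68 and 5.69 in null, a difference of -0.19 that did not pass. It rose with age in null by 1.199 (2.30-fold, adjusted p = 0.000417) and was at -0.01 in WT. The interaction was 1.21 (95% interval 0.70 to 1.73, adjusted p = 0.167), which did not pass, except with array weights (1.34, adjusted p = 0.0491). At 4 months its Kv4 partners were not called, with Kcnd1 at 0.12, Kcnd2 at -0.01 and Kcnd3 at 0.08, nor was Dpp10's relative Dpp6. Dpp6 read 6.20, 6.21, 6.08 and 6.21 in WT and 6.26, 6.46, 6.25 and 6.35 in null at 4 months, with every null array above every WT array, and its difference was 0.16.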

How the data were processed

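The authors deposited a log2 signal for each transcript cluster on each array. Partek, RMA and mm8 are named in the submitters' processing notes. The log base was read from the values, 3.76 to 15.73. Of 115830 rows, 25539 carried 1 gene symbol through the platform annotation, and the row with the highest mean stood for each of 20259 genes. No filter on low signal was used. Genes were fitted with limma 3.58.1 in R 4.3.3 (lmFit, eBayes) on all 16 arrays, with 4 group means, 12 residual degrees of freedom and no covariate. Benjamini-Hochberg adjustment ran over all genes. The spread behind each p-value is that between retinas labelled as biological replicates. Exact permutation tests were two-sided. Alternatives were other scalings, filters, row rules, thresholds and limma settings, covariates for sex and marker lists, a replicate block and leaving out each array. The procedure was tested on simulated data. Genes were named by rule: called genes, the lowest p per comparison, the highest signal and lowest genotype p per family, and a list of genes with a known place in the retina. Other genes named were chosen after their values were seen. The set, the gene lists and the alternatives were chosen with earlier results of these data known. Same-numbered arrays did not deviate together throughout, with residual correlations from -0.28 to 0.23. For some arrays the same number was the best match, and the main fit did not pair arrays. These correlations cannot exclude a shared origin of same-numbered arrays.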

Additional observations from a re-analysis of the deposited data

Results flagged for a closer look

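For 45 genes in 4 groups, the highest or lowest of the 4 arrays was compared with its distance to the other 3. In 15 of the 180 cases it lay far from them (gap over 0.829 of the range), and chance does this in about 1 in 20 groups. WT replicate 1 of 2 weeks accounted for 4: Kcnh2 was low at 7.70 (others 8.33 to 8.40), Abcc8 was low at 7.16 (others 7.75 to 7.84), Kcnn2 was high at 7.45 (others 7.38 to 7.39) and Kcnn4 was high at 5.55 (others 5.10 to 5.17). Null replicate 2 of 2 weeks accounted for 3 low values, Kcnip2 at 7.11 (others 7.80 to 7.81), Kcnj5 at 7.27 (others 7.71 to 7.75) and Kcnt1 at 6.95 (others 7.38 to 7.46). In the other 2-week arrays, Kcnf1 was low in WT replicate 3 at 5.34, Kcnh1 was low in WT replicate 4 at 7.07 and Kcnq5 was low in null replicate 4 at 5.94.

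At 4 months, Kcnh4 was low in WT replicate 1 at 4.91. In null, Kcnip2 was low in replicate 1 at 6.04, Kcnip3 was high in replicate 4 at 8.04, Kcnq3 was low in replicate 3 at 6.78 and Kcnv2 was high in replicate 1 at 12.96.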

How the results depend on the processing

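The calls of Kcnip2, Kcnj8 and Kcne1l with age held when any single array was left out. In null all 3 were lost with either the pigment epithelium covariate or the endothelium and pericyte covariate (added after the data were seen), at -1.20, -1.17 and -0.95 under the first and -0.87, -1.13 and -0.35 under the second. In WT Kcnj8 (-0.90) and Kcne1l (-0.35) were lost with the second, and Kcne1l with a fold of at least 1.5. The first covariate left 4 of the 7 WT calls (all genes 1861 to 1059) and 0 of the 5 null calls (1947 to 108), and the second 1 (315) and 0 (19). The ages did not overlap in either covariate in null, or in the second in WT, so these losses cannot separate markers from age. In WT, 4 genes were called from only the arrays compared (all genes 855), 4 with a fold of at least 1.5 (677) and 11 at an adjusted p under 0.1 (2797). In null, 8 were called at that threshold (2834) and 12 with array weights (3500). Leaving out single arrays gave 3 to 10 calls in WT and 3 to 7 in null. Between genotypes, the same omissions gave 0 to 1 calls at 2 weeks, 0 at 4 months, 0 to 1 averaged over both ages and 0 for the interaction. Quantile normalization and array weights gave 1 (Kcnv2) averaged over both ages. With replicate number as a block, 7 genes were called in WT and 6 in null with age, and 0 in the genotype comparisons, and no count moved by over 1.5 times. Over 270 results of single genes, 7794 values kept their side of the threshold, 93 lost it, 39 gained it, and no called value changed sign. The causes of these changes were not tested.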
